A study of Mus musculus with 17 samples.

Results

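The MiT/TFE factors Tfe3, Tfeb, Mitf and Tfec and the fusion partner gene Prcc were followed in RNA of whole kidneys from mice that carry a PRCC-TFE3 allele. The members were set by name, as the 4 genes of the family and the gene that supplies the other side of the fusion. They make up 5 of 35971 genes and 43 of 116770 transcripts in the deposited data. All 5 genes and 25 of the 43 transcripts passed the filter on low counts.

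Kidney RNA of 17 mice was sequenced as stranded mRNA libraries. All 17 mice carried the lsl-PRCC-TFE3 knock-in allele, a Rosa26 allele in which a lox-stop-lox cassette keeps the fusion silent until Cre recombinase acts. The Cre(-) group held 4 mice without KSP-Cre, of which replicates 1 and 2 also carried HIF1af/f and replicates 3 and 4 carried no flox allele. The KI group held 3 mice with KSP-Cre and no flox allele. The HIF1a KO group held 4 mice with KSP-Cre and HIF1af/f, the HIF2a KO group 3 mice with KSP-Cre and HIF2af/f, and the DKO group 3 mice with KSP-Cre and both flox alleles. KSP-Cre is driven by the promoter of Cadherin 16, a gene of kidney tubule epithelium, so that recombination is limited to those cells while the RNA comes from the whole organ. The labels give no age. The mice used for histology in the study were 8 months old.

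MiT/TFE factors are basic helix-loop-helix leucine zipper proteins that bind E-box DNA as dimers with each other. In nutrient-rich cells mTORC1 phosphorylates them on the lysosome through the Rag GTPases and folliculin, 14-3-3 proteins hold them in the cytoplasm, and on dephosphorylation they enter the nucleus and switch on lysosomal and autophagy genes. Tfe3 and Tfeb are expressed in many tissues, Mitf has many alternative first exons, of which the M exon serves melanocytes and the A exon is used widely, and Tfec is best known from macrophages. Prcc encodes a nuclear protein that associates with pre-mRNA splicing factors. In renal cell carcinoma with a PRCC-TFE3 translocation, the N-terminal part of PRCC is joined to the part of TFE3 that holds the DNA-binding domain, and the fusion protein is nuclear.

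The reads of a fusion transcript could be counted under Tfe3 and under Prcc, as far as its sequence matches the mouse transcripts. The sources used here do not state which species or which exons the knock-in sequence was taken from. A level of Tfe3 or Prcc RNA below is therefore the sum of what was assigned to that gene, and the RNA of the knock-in allele and that of the endogenous genes cannot be told apart. In the same way, fewer cells of a type and less RNA per cell cannot be told apart in whole kidneys.

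Promoter sequences are shown first for Mitf and Tfe3, since the transcripts described below differ in their start. Each window holds 250 bases that end just before a RefSeq start site on the plus strand of GRCm38.p6. Capitals mark the matches to a searched motif on either strand. The A window of Mitf lies at chr6:97806808-97807057 and the M window at chr6:97991533-97991782. The upstream window of Tfe3 lies at chrX:7762411-7762660 and the downstream window at chrX:7763693-7763942.
Mitf A: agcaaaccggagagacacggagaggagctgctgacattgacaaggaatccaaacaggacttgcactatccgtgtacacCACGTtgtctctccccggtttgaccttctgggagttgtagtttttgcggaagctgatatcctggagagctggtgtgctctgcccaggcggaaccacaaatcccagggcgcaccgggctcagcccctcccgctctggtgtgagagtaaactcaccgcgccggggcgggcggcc
Mitf M: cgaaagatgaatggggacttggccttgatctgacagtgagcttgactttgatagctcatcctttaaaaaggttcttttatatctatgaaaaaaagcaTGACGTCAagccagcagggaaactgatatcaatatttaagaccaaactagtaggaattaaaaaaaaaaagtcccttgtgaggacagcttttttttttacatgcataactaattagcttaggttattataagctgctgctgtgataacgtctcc
Tfe3 upstream: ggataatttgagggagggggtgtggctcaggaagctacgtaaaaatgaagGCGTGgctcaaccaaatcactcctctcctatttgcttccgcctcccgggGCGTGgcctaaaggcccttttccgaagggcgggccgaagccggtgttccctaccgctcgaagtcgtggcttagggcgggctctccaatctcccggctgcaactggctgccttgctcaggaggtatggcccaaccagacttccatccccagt
Tfe3 downstream: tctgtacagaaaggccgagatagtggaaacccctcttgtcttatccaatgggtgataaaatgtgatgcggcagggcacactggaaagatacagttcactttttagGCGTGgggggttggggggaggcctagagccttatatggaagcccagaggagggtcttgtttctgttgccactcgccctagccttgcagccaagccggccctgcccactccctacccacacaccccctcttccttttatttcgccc

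RefSeq lists 10 such windows for the 5 genes. The E-box CACGTG, at which the family binds, was in none of the 10 windows and in 6.02% of 32851 mouse promoters of the same length. The M-box core CATGTG was likewise in none of the 10, against 12.3% of all promoters. The longer forms TCACGTGA and TCATGTGA, each of which contains one of these cores, were in 0.785% and 0.846% of all promoters and in no member window. ACGTG, one form of the hypoxia response element core, is also contained in CACGTG. It was found once, in the A window of Mitf, and in 16.6% of all promoters. GCGTG, the other form, was found 2 times in the upstream and 1 time in the downstream window of Tfe3, 1 time in each of 2 Tfeb windows, and in 28.2% of all promoters. The cyclic AMP response element TGACGTCA was found once, in the M window of Mitf, and in 1.55% of all promoters. These are matches of letters in a short window and describe no binding.

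Library totals were 16504419 to 24668827 counts. Values between groups are given as CPM, counts scaled to the size of the library after TMM normalization. Each comparison used the quasi-likelihood F-test of edgeR, with p-values adjusted after Benjamini and Hochberg over 17011 genes and a threshold of 0.05. Cre(-) and KI kidneys were very different, with 10362 of the 17011 genes past the threshold. The sample numbers in the library names largely follow the groups, and what the numbers stand for is not given in the sources used here. Hif1a RNA was 162.6 to 198.4 CPM in HIF1a KO and 184.0 to 231.6 CPM in KI kidneys, and Epas1 RNA, that of HIF2a, was 136.5 to 149.3 CPM in HIF2a KO and 173.2 to 191.7 CPM in KI kidneys. Gene-level counts cannot show whether a floxed exon was lost.

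In KI kidneys Tfe3 was higher and Mitf was lower than in Cre(-) kidneys, Prcc was slightly higher, and Tfeb and Tfec did not pass the test. These 3 of 5 members stand against 60.9% of all genes past the threshold in the same comparison, so that the share of members that changed is close to that of genes in general. The KI and Cre(-) values did not overlap for 4 of 5 members, against 56.6% of all genes. What follows is therefore about which member moved in which direction and by how much, as shown in the plot of levels by genotype group.

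**Figure D1:**
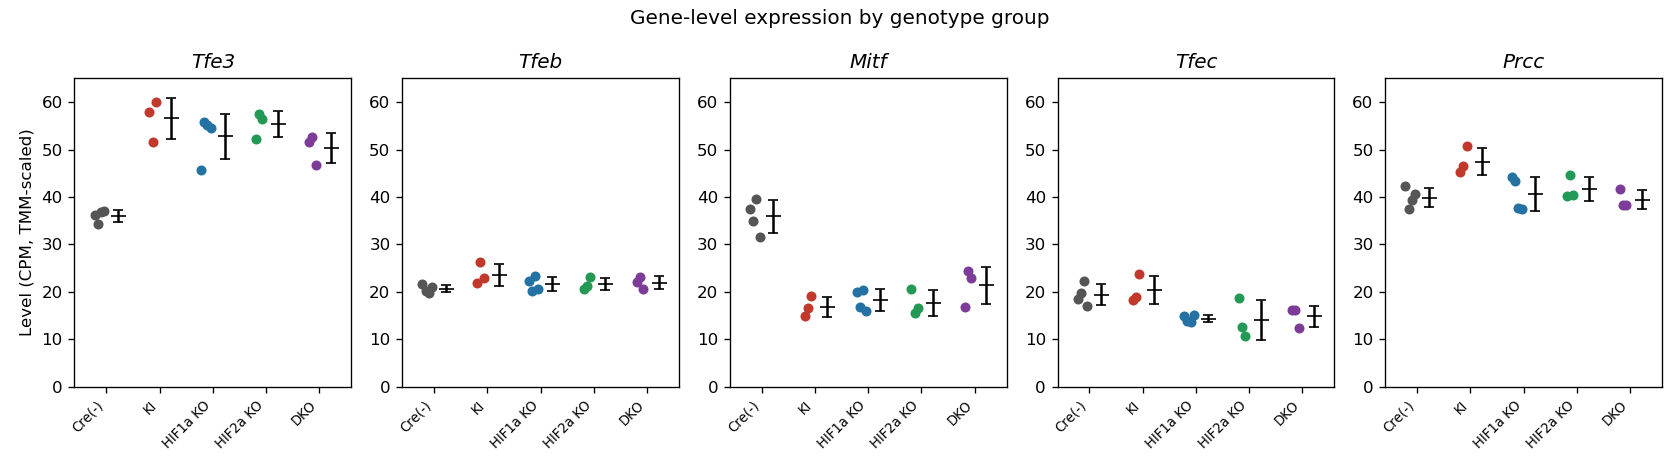
Level of the 5 genes in CPM (vertical axis, from 0) in each of the 17 kidneys (points) by genotype group, with the mean and SD of the group beside the points. All 13 Cre(+) kidneys lie above the Cre(-) kidneys for Tfe3 and below them for Mitf, and the 3 KI kidneys are the highest for Prcc.

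Tfe3, the gene that supplies the DNA-binding part of the fusion, lies on chromosome X of GRCm38 from 7762560 to 7775202 on the plus strand (ENSMUSG00000000134.17). Its level was 36.2, 34.3, 36.7 and 37.1 CPM in the 4 Cre(-) kidneys, while KI kidneys had 58.0, 51.7 and 59.97 CPM. It was 45.6, 55.7, 55.2 and 54.6 CPM in HIF1a KO, 52.2, 57.5 and 56.4 CPM in HIF2a KO and 51.6, 52.6 and 46.8 CPM in DKO kidneys. Each Cre(+) kidney was above each Cre(-) kidney. In KI kidneys the level was 1.57-fold that in Cre(-) kidneys (log2 fold change 0.65, SE 0.08, adjusted p = 3.34e-06 by edgeR). Against Cre(-), the log2 fold change was 0.55 in HIF1a KO, 0.62 in HIF2a KO and 0.48 in DKO kidneys, with the largest adjusted p by edgeR 8.10e-05. In these 3 comparisons 61.9%, 61.9% and 58.3% of all genes passed the threshold, and the groups did not overlap for 56.1%, 59.7% and 59.3% of all genes.

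Mitf lies on chromosome 6 from 97807052 to 98021349 on the plus strand (ENSMUSG00000035158.15). Its level was 37.5, 34.9, 39.7 and 31.6 CPM in Cre(-), against 14.8, 16.7 and 19.1 CPM in KI kidneys. It was 20.0, 16.7, 20.4 and 16.0 CPM in HIF1a KO, 20.7, 15.6 and 16.6 CPM in HIF2a KO and 16.9, 24.3 and 22.9 CPM in DKO kidneys. No Cre(+) kidney reached the lowest Cre(-) value. In KI kidneys the level fell by 1.09 on the log2 scale, to 0.470 of that in Cre(-) kidneys (SE 0.15, adjusted p = 1.13e-05 by edgeR). Against Cre(-) the log2 fold change was -0.97 in HIF1a KO, -1.03 in HIF2a KO and -0.75 in DKO kidneys, with the largest adjusted p by edgeR 3.80e-04.

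Prcc lies on chromosome 3 from 87858903 to 87885608 on the minus strand (ENSMUSG00000004895.9) and has a single transcript in the annotation. Its level was 42.2, 37.4, 39.3 and 40.7 CPM in Cre(-), against 45.2, 46.5 and 50.7 CPM in KI kidneys. It was 44.2, 43.5, 37.7 and 37.6 CPM in HIF1a KO, 40.2, 44.6 and 40.3 CPM in HIF2a KO and 41.7, 38.3 and 38.4 CPM in DKO kidneys. The 3 KI kidneys were above all 14 others. The level in KI was 1.19-fold that in Cre(-) kidneys (log2 fold change 0.25, SE 0.08, adjusted p = 0.00903 by edgeR), and the call was lost without KI replicate 3 (adjusted p = 0.050005 by edgeR) and with only the pair of Cre(-) mice with HIF1af/f as controls (adjusted p = 0.0520 by edgeR). In the other Cre(+) groups, which carry the same knock-in allele, the log2 fold change against Cre(-) was 0.03 in HIF1a KO, 0.06 in HIF2a KO and -0.02 in DKO kidneys, and none passed the threshold in edgeR. The 95% intervals reached from -0.16 to 0.21 over these 3 comparisons. All 95% intervals given here were built from the SE with a normal quantile, and are narrower than the F-test of edgeR would give. On log2(TPM + 1) all 3 passed, at 0.44, 0.56 and 0.51 (adjusted p = 4.71e-05, 9.54e-06 and 2.59e-05 by limma), and set against the median of all genes on that scale they were 0.09, 0.14 and 0.06.

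Tfeb, the relative of Tfe3 that is itself a fusion gene in some renal carcinomas, lies on chromosome 17 from 47737030 to 47792419 on the plus strand (ENSMUSG00000023990.18). Its level was 21.7, 20.3, 19.9 and 21.0 CPM in Cre(-), against 21.8, 26.2 and 22.9 CPM in KI kidneys. It stayed between 20.1 and 23.3 CPM in the HIF1a KO, HIF2a KO and DKO kidneys. The KI values were just above the Cre(-) values, with a log2 fold change of 0.19 (SE 0.08, adjusted p = 0.0540 by edgeR). Without KI replicate 1 the value passed (log2 fold change 0.25, adjusted p = 0.0284 by edgeR).

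Tfec lies on chromosome 6 from 16833373 to 16898441 on the minus strand (ENSMUSG00000029553.10). Its level was 18.5, 19.9, 22.2 and 17.1 CPM in Cre(-), against 18.2, 19.0 and 23.7 CPM in KI kidneys, which overlapped. It was 14.9, 13.97, 13.7 and 15.03 CPM in HIF1a KO, 18.8, 12.7 and 10.6 CPM in HIF2a KO and 16.1, 16.2 and 12.3 CPM in DKO kidneys. The HIF1a KO and DKO kidneys were below every Cre(-) and every KI kidney, and among the HIF2a KO kidneys replicate 1 lay within the range of both. In KI the log2 fold change against Cre(-) was 0.06 (SE 0.17, adjusted p = 0.760 by edgeR). Against Cre(-) the log2 fold change was -0.43 in HIF1a KO (SE 0.15, adjusted p = 0.0234 by edgeR) and -0.47 in HIF2a KO (SE 0.17, adjusted p = 0.0241 by edgeR), past the threshold, and -0.38 in DKO (SE 0.17, adjusted p = 0.0610 by edgeR). On log2(TPM + 1) the difference from Cre(-) turned to 0.09, 0.05 and 0.20 in the 3 groups, and to -0.27, -0.37 and -0.26 when set against the median of all genes. Leaving out Cre(-) replicate 3 ended both edgeR calls, with an adjusted p by edgeR of 0.0733 for HIF1a KO and 0.0784 for HIF2a KO. Leaving out replicate 2 or 3 of HIF1a KO, replicate 2 or 3 of HIF2a KO or, for HIF2a KO, Cre(-) replicate 2 also ended the call. With either pair of the Cre(-) mice alone as controls both calls ended (adjusted p by edgeR 0.0689 and 0.0719 for HIF1a KO, 0.0645 and 0.0747 for HIF2a KO). With no other group in the model HIF2a KO did not pass (0.0613 by edgeR) and DKO did (0.0337 by edgeR).

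The next comparisons ask whether loss of HIF1a, HIF2a or both moved the members in kidneys that carry the active fusion. Against KI, none of the 5 members passed in HIF1a KO by edgeR, with 2 at an unadjusted p under 0.05 and 1 past the threshold in DESeq2. Of all genes 5.44% passed by edgeR, 2.57% upward and 2.86% downward. Tfec had a log2 fold change of -0.50 (SE 0.16, adjusted p = 0.0917 by edgeR) and Prcc of -0.22 (SE 0.07, adjusted p = 0.0962 by edgeR), and neither overlapped with KI. Groups without overlap were found for 19.3% of all genes. With DESeq2 it was Tfec that passed, at an adjusted p of 0.0496.

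In HIF2a KO against KI none of the 5 passed by edgeR or by DESeq2, with 2 at an unadjusted p under 0.05 in each, and 1.39% of all genes passed by edgeR, 0.741% upward and 0.647% downward. The groups did not overlap for 1 member, Prcc, and for 20.2% of all genes. The log2 fold change of Tfec was -0.53 (SE 0.18, adjusted p = 0.126 by edgeR) and that of Prcc -0.19 (SE 0.08, adjusted p = 0.223 by edgeR). Without HIF2a KO replicate 1, which had the highest Tfec of its group, the log2 fold change of Tfec was -0.80 with an adjusted p of 0.0333 by edgeR.

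In DKO against KI, Prcc fell by 0.27 on the log2 scale (SE 0.08, adjusted p = 0.0409 by edgeR), as 1 of 5 members where 12.7% of all genes passed, 6.53% upward and 6.19% downward. The groups did not overlap for Prcc and Tfec and for 33.7% of all genes. The call was lost without KI replicate 2, KI replicate 3, DKO replicate 2 or DKO replicate 3, with adjusted p-values by edgeR of 0.0712, 0.155, 0.143 and 0.131, and when no other group was in the model (0.0852). The log2 fold change was 0.34 for Mitf (SE 0.15, adjusted p = 0.159 by edgeR) and -0.45 for Tfec (SE 0.18, adjusted p = 0.108 by edgeR). Without DKO replicate 1 Mitf passed with a log2 fold change of 0.48 and an adjusted p of 0.0486 by edgeR, and 2 members were then past the threshold.

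Tfe3 and Tfeb gave small values in the same comparisons. Against KI the log2 fold change of Tfe3 was -0.10 in HIF1a KO, -0.03 in HIF2a KO and -0.17 in DKO, with the lowest adjusted p by edgeR 0.192. The 95% intervals reached from -0.33 to 0.13 over the 3 comparisons. In DKO the interval, by the normal quantile, was -0.33 to -0.006, while the F-test of edgeR gave an unadjusted p of 0.0596. For Tfeb the values were -0.13, -0.13 and -0.11, with the lowest adjusted p by edgeR 0.373. Between the 3 HIF deletion groups, taken in pairs, no member passed in edgeR or DESeq2 and none had an unadjusted p under 0.05. Of all genes 0.429% passed between HIF1a KO and HIF2a KO, 0.406% between DKO and HIF1a KO and 0.00588% between DKO and HIF2a KO. The summed proximal tubule markers differed along with the genotype here too, at 155.5 to 209.0 TPM in KI, 269 to 690 TPM in HIF1a KO, 223 to 605 TPM in HIF2a KO and 387 to 635 TPM in DKO kidneys, and their part in the member values was not tested.

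The values of Tfec against KI were similar in the single and the double deletion, -0.50, -0.53 and -0.45. The interaction of the 2 deletions, which asks whether DKO differs from the sum of the single deletions, was 0.58 on the log2 scale for Tfec (SE 0.24, unadjusted p = 0.0302, adjusted p = 0.811 by edgeR). The 3 comparisons share the KI kidneys, so the likeness of their values rests in part on the same 3 libraries.

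**Figure D2:**
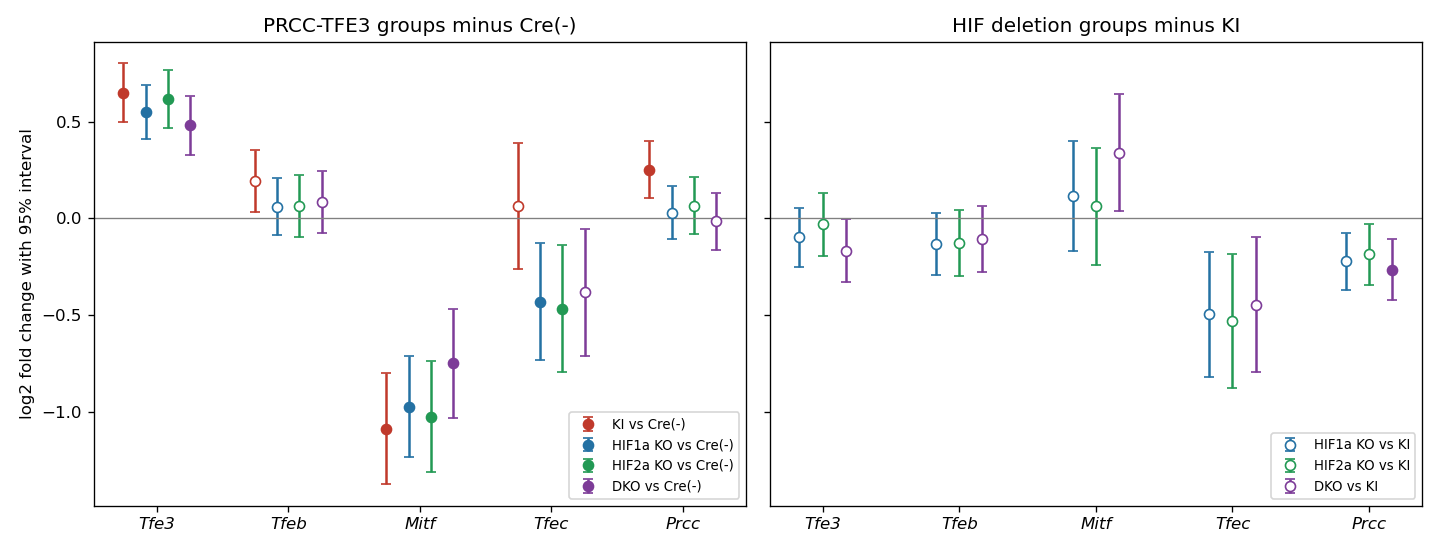
log2 fold change of the 5 genes (vertical axis) with its 95% interval, for the Cre(+) groups against Cre(-) on the left and for the HIF deletion groups against KI on the right. The intervals use a normal quantile and are narrower than the F-test of edgeR would give. Filled points passed an adjusted p of 0.05 in edgeR. Tfe3 and Mitf are filled in all 4 comparisons on the left, and on the right only Prcc in DKO is filled.

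Levels of different genes were compared per length, as TPM, and only within a library. Prcc had the highest TPM of the 5 genes in 13 of 17 kidneys and Tfeb in the other 4, and Mitf had the lowest in all 17. Tfe3 was above Tfeb in 8 of 17 kidneys, so that these neighbors were not separated with all transcripts summed. The Tfeb values include the short transcript Tfeb-215, described below. Without it Tfeb was at 23.0, 26.5 and 20.9 TPM in the KI kidneys, beside 30.1, 26.9 and 28.9 TPM for Tfe3. In KI replicate 2, where Tfeb was the highest with Tfeb-215 included, Prcc had 35.9 TPM. The order without Tfeb-215 was not worked out for the other Cre(+) groups. Tfe3 was above Tfec in all 13 Cre(+) kidneys and in 2 of 4 Cre(-) kidneys.

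Mitf made up 17.2% ± 1.0 (SD, n = 4) of the summed TPM of the 4 factors in Cre(-) kidneys and 6.40% ± 0.52 (n = 3) in KI kidneys. It made up 8.49% ± 1.3 (n = 4) in HIF1a KO, 7.46% ± 1.1 (n = 3) in HIF2a KO and 9.67% ± 1.9 (n = 3) in DKO kidneys. The highest Cre(+) share, 10.9%, was below the lowest Cre(-) share, 16.3%. Tfe3 made up 26.5% ± 2.1 (n = 4) in Cre(-) and 33.0% ± 3.4 (n = 3) in KI kidneys, and its lowest share in a Cre(+) kidney, 29.3%, was above the highest in Cre(-), 28.9%. The plot of family shares by library shows the 4 factors side by side.

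**Figure D3:**
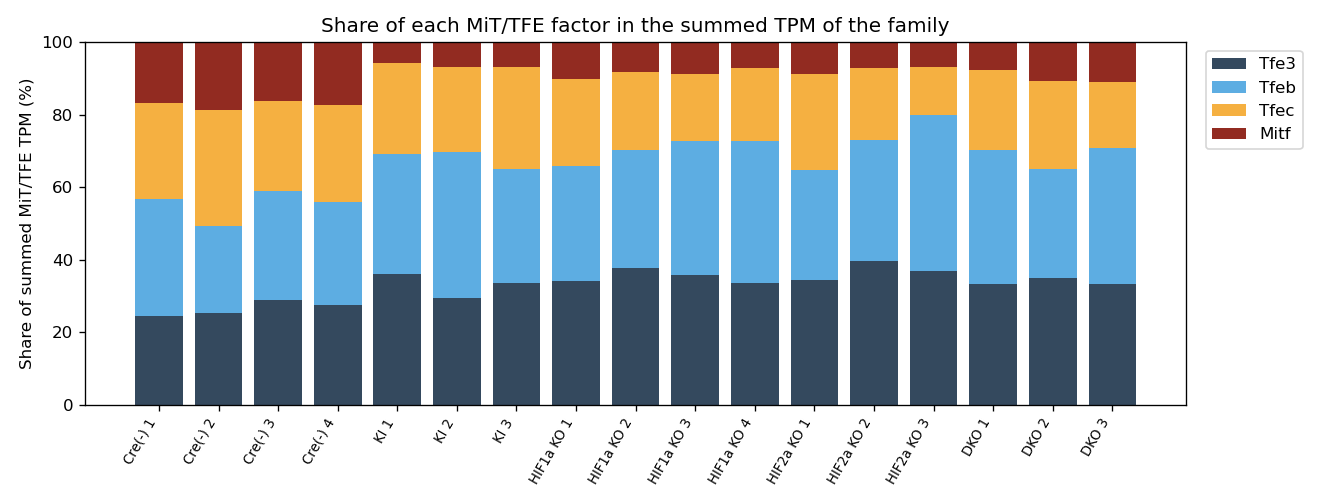
Share of Tfe3, Tfeb, Tfec and Mitf in the summed TPM of the 4 factors (vertical axis, percent) in each of the 17 kidneys (bars). The Mitf segment at the top of each bar is 16.3% or more in the Cre(-) kidneys and 10.9% or less in all others.

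Changes between Cre(-) and the other groups were tested on CPM and not on TPM, since TPM divides by a library total of which the 10 most abundant genes hold 29.5% to 33.8% in Cre(-) kidneys and 15.4% to 20.5% in Cre(+) kidneys. The TPM ranges given for transcripts and markers carry this shift. On log2(TPM + 1) the median of all genes was 0.38 higher in KI than in Cre(-). Relative to that median the KI difference was 0.60 for Tfe3, -1.01 for Mitf, 0.32 for Prcc, 0.20 for Tfec and 0.57 for Tfeb. For Tfeb, whose log2 fold change in CPM was 0.19, the value was 0.21 when the transcript Tfeb-215 was left out of the sum.

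Of the 43 member transcripts, 13 were above 0 in all 17 libraries and 4 were at 0 in all. In KI against Cre(-), 4 of the 25 tested transcripts were higher and 1 was lower at an adjusted p under 0.05 by edgeR over 51539 transcripts, where 24.3% of all transcripts passed, 12.9% upward and 11.4% downward. One of the 4, Tfeb-215, met the filter only through the Cre(+) kidneys. The estimated counts split reads between transcripts of a gene, and the error of that split is not in the files. In HIF1a KO, HIF2a KO and DKO against KI none of the 25 passed by edgeR or by limma on log2(TPM + 1), with 4, 3 and 2 at an unadjusted p under 0.05 by edgeR, and 0.0757%, 0.00582% and 0.631% of all transcripts passed.

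Most Mitf RNA came from the A start, which held 85.6% ± 6.0 (SD, n = 4) of the TPM of Mitf in Cre(-) and 93.6% ± 8.0 (n = 3) in KI kidneys. The M start held 12.2% ± 6.4 (n = 4) and 6.36% ± 8.0 (n = 3). Mitf-202 (ENSMUST00000043637.13, 10 exons, start at 97807058) held a mean of 90.2% of the TPM of Mitf, between 80.04% and 100% over the 17 kidneys. The 3 transcripts from the M start, 97991792 to 97991921, together had 0.37 to 2.12 TPM in Cre(-) kidneys and 0 to 0.94 TPM in KI kidneys. The start used most is the one whose window is printed above as Mitf A. Mitf-202 fell by 1.02 on the log2 scale in KI (SE 0.16, adjusted p = 2.37e-04 by edgeR), close to the change of the whole gene.

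The main transcript of Tfe3 was Tfe3-204 (ENSMUST00000115677.7, 10 exons), which starts at 7763959, just past the downstream window printed above. It held 37.2%, 52.6%, 25.9% and 66.7% of the TPM of Tfe3 in Cre(-) kidneys and 74.2%, 73.3% and 62.7% in KI kidneys. Its level was 12.7, 16.7, 12.3 and 22.5 CPM in Cre(-) and 41.2, 36.3 and 36.6 CPM in KI kidneys, without overlap. Its log2 fold change in KI was 1.25 (SE 0.18, adjusted p = 1.11e-04 by edgeR), where that of the whole gene was 0.65.

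Over all 13 Cre(+) kidneys, which pool 4 genotypes, the share of Tfe3-204 was 22.3 percentage points higher than in the 4 Cre(-) kidneys (two-sided exact permutation test, p = 0.00756, 0.0340 adjusted over 9 transcripts). The 9 include Tfeb-215, which met the limits only through the Cre(+) kidneys and had the lowest p by this permutation test. Its presence lowered the adjusted p of Tfe3-204, and the adjustment was not repeated without it. The value of 0.0340 is therefore not read as past the threshold. The shares overlapped between the groups, since Cre(-) replicate 4 was above 5 Cre(+) kidneys. Without Cre(-) replicate 1, 2 or 3 the adjusted p of this permutation test was 0.0723, 0.0964 and 0.0723. For KI alone, with 3 kidneys against 4, no permutation test can go below p = 0.0571.

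By start, the 4 downstream transcripts of Tfe3 held 66.3% ± 12.95 (SD, n = 4) of its TPM in Cre(-) and 74.5% ± 5.0 (n = 3) in KI kidneys, which differed by less than the spread of the Cre(-) kidneys. The 8 upstream transcripts held 26.7% ± 12.8 (n = 4) and 17.5% ± 4.0 (n = 3). The upstream transcript Tfe3-206, chosen after its values were seen since it passed the test, had 1.54 to 4.01 CPM in Cre(-) and 5.84 to 9.89 CPM in KI kidneys (log2 fold change 1.36, SE 0.38, adjusted p = 0.0169 by edgeR, 0.0845 without KI replicate 3). The 8 upstream transcripts together had 2.18 to 8.47 TPM in Cre(-) and 4.34 to 6.38 TPM in KI kidneys, which overlapped.

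Tfeb-215 (ENSMUST00000162719.1) is a short transcript with a retained intron, from 47787910 to 47788938, within Tfeb. It had 0 estimated counts in all 4 Cre(-) kidneys and 12.8, 31.3 and 18.9 in the 3 KI kidneys. It had 3.74, 27.1, 14.1 and 31.8 counts in HIF1a KO, 6.06, 25.2 and 23.0 in HIF2a KO, and 19.7, 0.0000306 and 16.2 in DKO kidneys, of which replicate 2 was in effect at 0. Per library total, without TMM scaling, the KI mean was at least 7.36-fold a floor of 3 counts in a Cre(-) library. On that scale the median log2 fold change of all genes was 0.37 in KI against Cre(-), and the 7.36-fold value carries this shift. Its share of the TPM of Tfeb was 18.5 percentage points higher in Cre(+) than in Cre(-) kidneys. With 0 in all Cre(-) kidneys it met the limits on counts and on mean share only through the Cre(+) kidneys, so these differences are a description, without a test.

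Tfeb-215 has 324 bases, so that few counts gave it 1.27 to 10.5 TPM in the Cre(+) kidneys other than DKO replicate 2. Reads of unspliced Tfeb RNA could be assigned to such a transcript, which was not tested. The share of Tfeb-212 was 12.3 percentage points lower in Cre(+) kidneys (two-sided exact permutation test, p = 0.0261, 0.0782 adjusted over 9 transcripts). The share of Mitf-202 was 6.63 points higher (p = 0.0664, 0.149 adjusted, by the same exact permutation test). The other 5 transcripts compared had differences of -7.38 to 3.03 points and adjusted p-values of 0.248 or more by that permutation test.

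**Figure D4:**
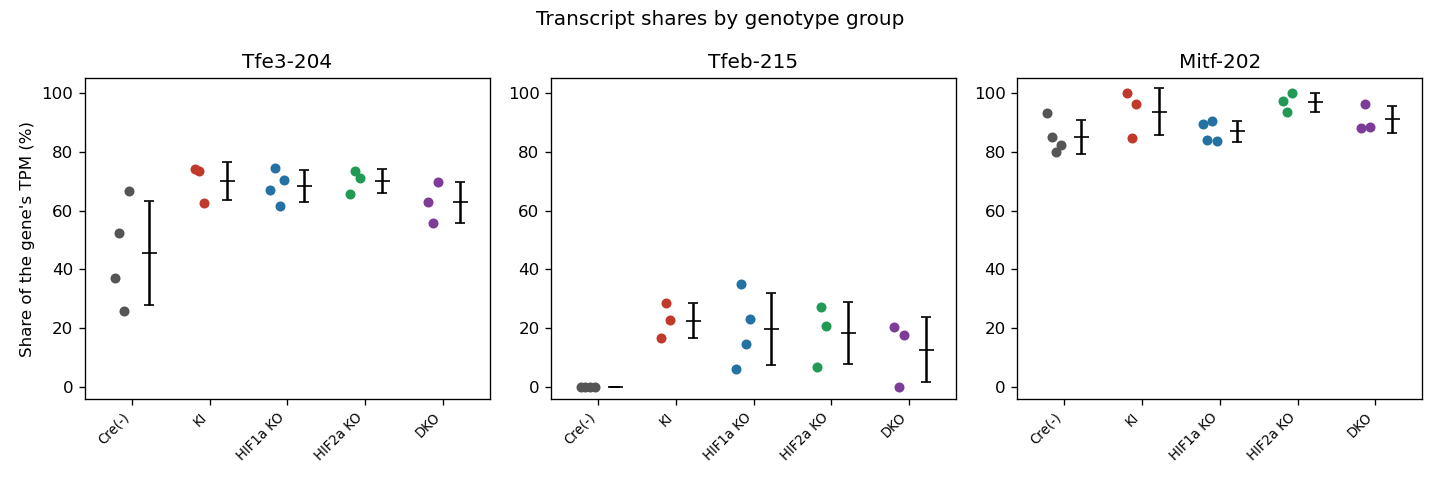
Share of the gene's TPM held by Tfe3-204, Tfeb-215 and Mitf-202 (vertical axis, percent) in each of the 17 kidneys (points) by genotype group, with the mean and SD beside them. Tfeb-215 is at 0 in all 4 Cre(-) kidneys and in 1 DKO kidney, and Mitf-202 is at 80.04% or more throughout.

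Cell type markers moved along with the members. The 5 proximal tubule markers summed to 3078 to 3545 TPM in Cre(-) kidneys, and all 5 fell in KI. All markers of the thick ascending limb, the distal convoluted tubule, intercalated cells and podocytes fell as well, 3, 2, 3 and 3 genes, and of 3 principal cell markers 2 fell and Aqp3 rose. Cdh16, the gene of the Cre driver, fell by 0.87 on the log2 scale in KI (SE 0.09, adjusted p = 8.30e-07 by edgeR). Against KI its log2 fold change was 0.37 in HIF1a KO, 0.26 in HIF2a KO and 0.32 in DKO (adjusted p = 0.0297, 0.162 and 0.0397 by edgeR). Of the 8 macrophage markers 7 rose in KI, with a median log2 fold change of 2.06 over the 8, and their sum was 103.0 to 125.8 TPM in Cre(-) and 1996 to 2251 TPM in KI kidneys. Most of the sum in KI came from Cd68, a lysosomal protein, at 1563 to 1745 TPM. The complement genes C1qa, C1qb and C1qc rose by 2.23, 2.13 and 2.34 on the log2 scale, Mrc1 by 1.99, Cd14 by 1.78 and Adgre1 by 1.52. Csf1r, a receptor that defines macrophages, had a log2 fold change of -0.21 (SE 0.09, adjusted p = 0.0603 by edgeR). Of the 5 melanocyte markers 3 were tested. Tyrp1 was at 0 in all Cre(-) kidneys and at 94.7 to 145.8 TPM in KI kidneys. It met the filter only through the Cre(+) kidneys, so this is a description, without a test. Pmel rose by 0.98 on the log2 scale (SE 0.36, adjusted p = 0.0263 by edgeR) at 1.29 TPM or less. Tyr did not exceed 0.13 TPM and Dct 0.52 TPM in any kidney, and Mlana was at 0 in all KI kidneys. Of the 5 mast cell markers 2 were tested. Kit rose in KI by 2.62 on the log2 scale (SE 0.26, adjusted p = 5.45e-07 by edgeR). Tpsb2 was at 0 to 0.33 TPM in Cre(-) kidneys and met the filter only through the Cre(+) kidneys. Its level is therefore a description, without a test. Kit was at 68.8 to 101.7 TPM and Tpsb2 at 0.56 to 3.01 TPM in KI kidneys. In no kidney did Cpa3 exceed 1.04 TPM, Cma1 0.58 TPM or Mcpt4 0.49 TPM. The 6 adipocyte markers summed to 12.7 to 79.5 TPM in Cre(-) kidneys and reached 1307 TPM in KI replicate 2, beside 37.8 and 44.6 TPM in the other KI kidneys. The part of these shifts in the member values was not tested.

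The genes that control where MiT/TFE proteins are held were next examined as a list of 22 genes of the folliculin, Rag, Ragulator, mTORC1, GATOR1 and TSC complexes. In KI against Cre(-), 10 rose and 6 fell, with a median log2 fold change of 0.08 beside 0.03 over all genes, where 31.6% of all genes rose and 29.3% fell. Among those that rose were Rragd, with a log2 fold change of 2.02, and Rragb, with 1.64, both Rag GTPases that tether the factors to the lysosome. Flcn, the gene of folliculin, rose by 1.33 and its partner Fnip2 by 1.58. Mtor, the kinase itself, fell by 1.17 and the Ragulator subunit Lamtor5 by 1.05, both named after their values were seen. Against KI, 5 of the 22 fell in HIF1a KO, 2 in HIF2a KO and 9 in DKO, and none rose, where 2.86%, 0.647% and 6.19% of all genes fell. Rragc, chosen after its values were seen since it fell in all 3, had log2 fold changes of -0.35, -0.47 and -0.53.

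Of 19 genes of 14-3-3 proteins, calcineurin, kinases and export, which act on the location of the factors, 8 rose and 3 fell in KI, with a median log2 fold change of 0.08. The share called in either direction was close to the 60.9% of genes in general. By direction, 31.6% of all genes rose and 29.3% fell. Sfn and Ywhah, both 14-3-3 genes, rose by 1.87 and 1.25 on the log2 scale, Mcoln1, the lysosomal calcium channel upstream of calcineurin, by 1.66, and Akt1 by 0.96. Those that fell were Ywhae, Xpo1 and Map4k3, by 0.18, 0.32 and 0.18. Mcoln1 alone fell against KI, by 0.43 in HIF1a KO, 0.44 in HIF2a KO and 0.66 in DKO. In these comparisons 2.86%, 0.647% and 6.19% of all genes fell.

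Of 32 genes known as targets of the family, 24 rose and 5 fell in KI, with a median log2 fold change of 1.11. In the same comparison 31.6% of all genes rose and 29.3% fell. The list shares 4 genes with the first list and 1 with the second. Gpnmb, a melanosome and lysosome glycoprotein used as a marker of the fusion, rose by 13.13 on the log2 scale, Trpm1, which Mitf controls in melanocytes, by 8.49, the lysosomal hydrolase Hexa by 3.41 and the heme oxygenase Hmox1 by 2.75. Among those that fell were Glb1, a lysosomal hydrolase, by 1.20, Ppargc1a by 0.84, Acp5 by 0.81 and the proton pump subunit Atp6v1h by 0.42. Against KI, 10 of the 32 fell in HIF1a KO, 6 in HIF2a KO and 18 in DKO, with medians of -0.30, -0.27 and -0.52. Of all genes 2.86%, 0.647% and 6.19% fell in these comparisons. The gene that rose was Glb1 in HIF1a KO, by 0.45, and Ctsk in DKO, by 0.67. In the same kidneys Tfe3 and Tfeb RNA had not passed the test in either direction.

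Of 17 other bHLH leucine zipper genes, the class to which the family belongs, 10 rose and 3 fell in KI, with a median log2 fold change of 0.29. Among all genes 31.6% rose and 29.3% fell. Mycl rose by 1.95, Myc by 1.79, Mnt by 1.23 and Srebf1 by 0.98 on the log2 scale. Mlxipl and Mlx, which act together in the response to glucose, fell by 0.94 and 0.69, and Mxd1 by 0.54. Against KI, Mnt and Usf2 fell in HIF1a KO, by 0.57 and 0.28, and Mxd4 rose by 0.38, and Usf2 fell by 0.33 in DKO.

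Of 16 genes known as other partners of TFE3 or TFEB fusions 14 were listed and tested, of which 7 rose and 2 fell in KI, with a median log2 fold change of 0.18. The share called in either direction was close to the 60.9% of all genes. By direction, 31.6% of all genes rose and 29.3% fell. Dvl2 rose by 1.27, Parp14 by 0.89, Med15 by 0.87 and Nono by 0.47, and Aspscr1 and Yap1 fell by 0.42 and 0.41. Against KI, Parp14 rose by 0.58 in HIF2a KO and by 0.55 in DKO, where Dvl2 fell by 0.35. Of 9 genes of the splicing machinery that PRCC associates with and of its binding partner Mad2l2, 5 rose and 1 fell, with a median log2 fold change of 0.17. Here too the share called in either direction was near that of all genes, while by direction 31.6% of all genes rose and 29.3% fell. Mad2l2, a checkpoint and DNA repair protein, rose by 0.95, and the splicing factors Cdc5l and Snrpb rose by 0.32 and 0.25, while Prpf8, the core protein of the spliceosome, fell by 0.41. Against KI the medians of the 9 genes were -0.03 in HIF1a KO, -0.04 in HIF2a KO and -0.09 in DKO.

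**Figure D5:**
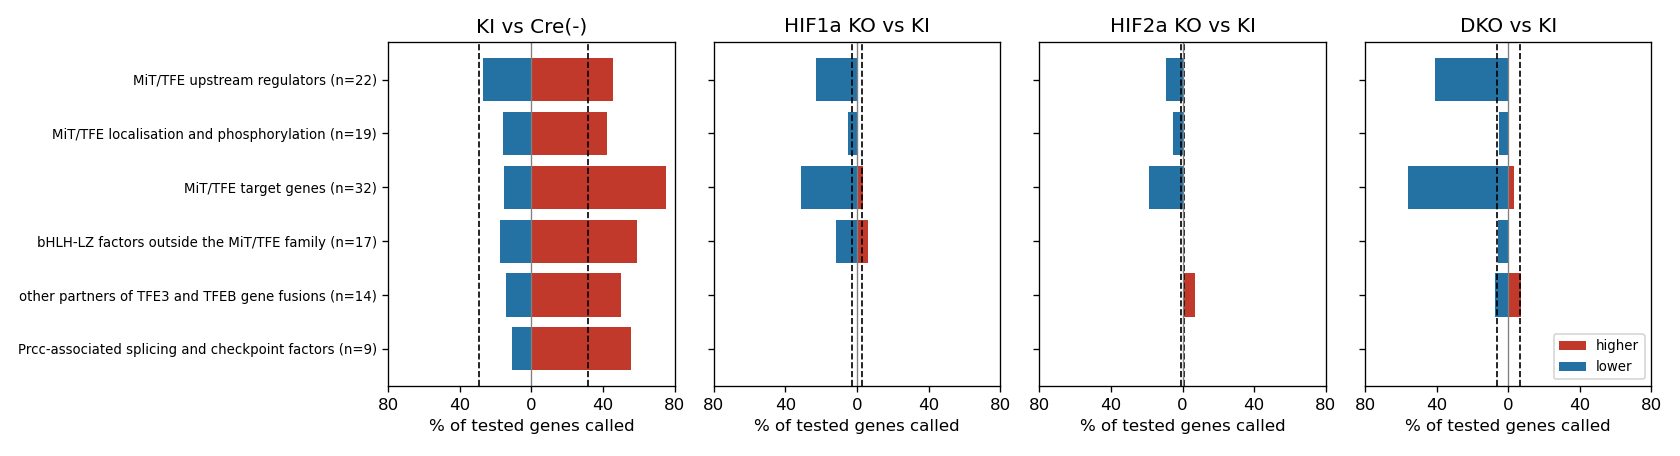
Percent of the tested genes of 6 lists (rows, with the number tested) that were higher (red, to the right) or lower (blue, to the left) at an adjusted p under 0.05 in edgeR, for 4 comparisons. The dashed lines give the percentage of all 17011 genes in each direction. The target list has 24 of 32 genes higher in KI than in Cre(-), and 18 of 32 lower in DKO than in KI.

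Genes with the pattern most like that of each member were found by Pearson correlation of log2 CPM over the 17 kidneys, among 14711 genes. The kidneys fall into genotype groups, so that any gene that differs between Cre(-) and the rest is like any other. For Tfe3 these were Trim27 (r = 0.975), Med15 (0.973) and Loxl2 (0.971). For Mitf they were Zhx1 (0.986), Gm10681 (0.971) and Slc10a2 (0.970). For Prcc they were Kctd17 (0.906), Vti1b (0.869) and Dtnbp1 (0.861), for Tfec Tmem186 (0.871), Inpp5j (0.867) and Snap29 (0.840), and for Tfeb Gm5869 (0.738), Slc1a5 (0.729) and Ppm1m (0.719).

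Within the 13 Cre(+) kidneys Zhx1 was again the nearest to Mitf (r = 0.951) and Tmem186 to Tfec (r = 0.912). The nearest to Tfe3, Tfeb and Prcc were Snapc4 (0.918), Arpc5l (0.848) and Mrpl33 (0.969), none of which was among the 3 nearest over all kidneys. Tfe3 and Mitf had r = -0.913 over the 17 kidneys and -0.520 over the 13 Cre(+) kidneys. Tfec and Prcc had r = 0.298 over the 17 and 0.564 over the 13.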

How the data were processed

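Stranded mRNA libraries of 17 mouse kidneys, 1 per mouse by their titles, were analysed in 5 genotype groups. The authors trimmed reads with Trim Galore 0.6.6 and cutadapt 2.5, aligned them with STAR 2.7.9a and deposited estimated counts per transcript from RSEM, not normalized, in 1 table of all libraries. The study's methods name a human build and GRCm38, and the deposited rows are mouse Ensembl transcripts. The TPM values beside them were deposited by the authors as computed by RSEM, per transcript length and library.

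Transcripts were matched by identifier to genes in the annotation given for GRCm38. Of 119353 listed transcripts 2583 had no match and were left out, and the matched ones held 99.04% to 99.24% of counts. Expected counts were summed per gene and rounded. Genes with too few counts were dropped with filterByExpr (minimum count 10), and all 17 libraries were fitted together in edgeR 4.0.16 (R 4.3.3, TMM, quasi-likelihood) with group as the only term. Transcripts were fitted in the same way. The tests were checked on simulated data. Isoform shares were compared with exact permutation tests (scipy 1.17.1), for transcripts with a mean share of at least 10%. Promoters came from RefSeq (GRCm38.p6).

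Library totals were 16504419 to 24668827 counts, with a median of 18635282, and 3 counts, the limit that a count of 0 allows, equalled 0.1216 to 0.1818 CPM. This limit covers counting error only. Alternatives were DESeq2 1.42.0, its size factors, no filter, fits of the groups compared, a replicate block, limma 3.58.1 on log2(TPM + 1) and log2(TPM + 0.1), subsets of the Cre(-) mice, and leaving out each library.

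The members and gene lists were chosen with earlier results of these data known. By the rule for naming, each list is described by its counts and by up to 4 genes with the largest change in KI against Cre(-), without overlap and with a mean TPM of at least 1. Other genes named are those of counts of 5 or fewer, or were chosen after their values were seen.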

Additional observations from a re-analysis of the deposited data

Results flagged for a closer look

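Among the HIF1a KO kidneys, the Tfe3 level of replicate 1 was 45.6 CPM, far below the other 3, which lay between 54.6 and 55.7 CPM. It stood apart by Dixon's test. This was the only value of its kind in 28 groups of values examined, where chance gives about 1 in 20. Without this kidney the log2 fold change of Tfe3 in HIF1a KO was 0.62 against Cre(-) (adjusted p = 1.32e-06 by edgeR) and -0.04 against KI (adjusted p = 0.823 by edgeR).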

How the results depend on the processing

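The KI against Cre(-) changes of Tfe3 and Mitf kept their direction and stayed past the threshold in all 9 alternatives, between 0.62 and 1.02 and between -1.15 and -0.63 on the log2 scale. The number of members past the threshold in KI against Cre(-) was 5 on log2(TPM + 1) and 5 on log2(TPM + 0.1). In HIF1a KO against KI it was 1 with DESeq2. In DKO against KI it was 0 without the filter, 0 with only the compared groups, 0 with the replicate block, 0 on log2(TPM + 1) and 0 on log2(TPM + 0.1). With each library left out in turn it was 0 to 1 in HIF2a KO against KI and 0 to 2 in DKO against KI. For transcripts in KI against Cre(-) it was 8 on log2(TPM + 1) and 3 to 6 with each library left out, and for isoform shares 1 to 2. These counts include Tfeb-215.

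Directions turned as follows, and the cause was not tested. Tfe3 in HIF2a KO against KI was 0.021 on log2(TPM + 1), 0.022 on log2(TPM + 0.1) and -0.092 to 0.013 with each library left out, and Mitf was -0.069 to 0.161. Tfec against Cre(-) on log2(TPM + 1) and log2(TPM + 0.1) was 0.085 and 0.091 in HIF1a KO, 0.055 and 0.056 in HIF2a KO, and 0.198 and 0.209 in DKO. Prcc in DKO against Cre(-) was 0.0039 without the filter, 0.513 and 0.531 on the TPM scales and -0.057 to 0.024 with each library left out. With each library left out, Prcc in HIF1a KO against Cre(-) was -0.0067 to 0.066 and Tfec in KI against Cre(-) was -0.062 to 0.139. On the TPM scales Tfeb passed in all 4 Cre(+) groups against Cre(-). Mitf in DKO against Cre(-) was no longer past the threshold on the TPM scales (adjusted p = 0.0899 and 0.0924 by limma).

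The numbers did not pair the mice, since libraries with the same number correlated between -0.22 and 0.25 over 31 pairs and 3 of 17 libraries correlated best with their own number. With the replicate block, Prcc in DKO against KI had an adjusted p of 0.0679 and Prcc-201 in KI against Cre(-) of 0.0747 by edgeR. All genes past the threshold numbered 925, 236 and 2164 in HIF1a KO, HIF2a KO and DKO against KI. They numbered 1665 and 1015 with DESeq2 for the first pair, 188, 2 and 934 with only the compared groups, 479 and 76 with the block, 552 and 83 on log2(TPM + 0.1), and 253 to 1156, 13 to 861 and 745 to 2295 with each library left out. Between the HIF deletion groups they were 73 (HIF1a KO against HIF2a KO), 69 (DKO against HIF1a KO) and 1 (DKO against HIF2a KO), and 537, 418 and 18 with DESeq2, 116, 156 and 0 with only the compared groups, 19 and 13 for the first pair with the block, 27 and 45 on log2(TPM + 0.1), 29 for the first on log2(TPM + 1), and 1 to 192, 6 to 35 and 1 to 4 with each library left out. Depth limits the transcripts with few counts, such as Tfeb-215.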
